A study of Mus musculus with 6 samples.

Results

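Lysophosphatidic acid (LPA) and sphingosine-1-phosphate (S1P) are lysophospholipids that act outside the cell. Their receptors couple to G proteins, and through them to phospholipase C and adenylyl cyclase. Autotaxin, the secreted enzyme encoded by Enpp2, makes most extracellular LPA from lysophosphatidylcholine, and in the brain both lipids are known to change the shape and movement of astrocytes. The genes described here are Enpp2, the LPA receptor genes Lpar1, Lpar2, Lpar3, Lpar4 and Lpar6, and the S1P receptor genes S1pr1, S1pr2 and S1pr3. They were chosen by symbol, which the deposited tables give in capitals (ENPP2, LPAR1, LPAR2, LPAR3, LPAR4, LPAR6, S1PR1, S1PR2 and S1PR3), and all 9 were found among the 23282 gene rows. The choice was made with the difference between the groups already known, so that the levels and fold changes of these 9 genes are given as a description, without a test.

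RNA was sequenced from Ink4a -/- murine astrocytes, brain cells of 1 line in culture, in 3 control libraries (with empty pcDNA3.1-puro as the transfected vector) and 3 JAG1-overexpressing libraries (transfected with pcDNA3.1-JAG1-puro). The study calls these cells Ink4a/Arf-/- astrocytes, so that both groups shared the loss of Ink4a and Arf, products of 1 locus, and the genotype "WT" that the labels give for the control libraries was read as without added JAG1. All cells were grown in medium with fetal bovine serum, which is known to carry LPA and S1P. Neither the promoter of the vector nor separate transfections behind the replicates are given in the sources used here, so that the spread between libraries may be technical. The QuantSeq libraries read the 3' end of each transcript, and the number of reads on a gene therefore does not rise with transcript length.

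The libraries held between 14341634 and 20489062 reads counted on genes, and JAG1-overexpressing replicate 2 was the shallowest. Levels are given in CPM, read counts relative to the library total scaled by edgeR's TMM method, and 3 reads, taken as the limit of detection, equal between 0.148 and 0.206 CPM. This limit covers counting error only. The log2 CPM of the tested genes correlated across genes at 0.989 to 0.994 within a group. Between the groups it correlated at 0.911 to 0.920. By this correlation no library stood apart from its group, which does not cover single genes. Jag1 itself had 182, 201 and 214 reads in the control and 304, 197 and 227 reads in the JAG1-overexpressing libraries, a log2 fold change of 0.46 with a standard error (SE) of 0.11 (adjusted p = 0.00446, edgeR quasi-likelihood test). Whether the transcript of the vector carries the 3' end of the gene is not given in the sources used here, so that these reads may not measure the added JAG1. Cdkn2a, the gene at the Ink4a locus, had at most 5 reads in any library.

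The labelled cell type was checked with marker genes. Of 10 astrocyte markers, Gfap and Aqp4 were at 0 in every library, and Slc1a3 and Slc1a2 had at most 2 reads, whereas Sox9 and Gja1 were well expressed. The summed level of the astrocyte markers was 312 to 371 CPM in control and 110 to 125 CPM in JAG1-overexpressing libraries, and 5 of the 6 that could be tested were lower. Sox9, a transcription factor of astrocyte development, fell from 181 ± 4.64 CPM to 18.0 ± 1.25 CPM (SD, n = 3 each). Of 6 markers of fibroblasts and mural cells, Col1a1 and Pdgfrb were expressed and Lum and Rgs5 were at 0 in every library, and the summed level was 323 to 325 CPM in control and 214 to 257 CPM in JAG1-overexpressing libraries. The 4 tested ones moved in both directions, since Col1a1, Dcn and Pdgfrb fell while Col1a2 rose from 3.35 ± 0.528 CPM to 50.7 ± 6.20 CPM (SD, n = 3 each). Endothelial markers, which bear on S1pr1 because endothelium is known to carry this receptor, summed to at most 0.376 CPM in any library, and 5 of the 6 had at most 3 reads in every library. Markers of the oligodendrocyte lineage, a known source of autotaxin in brain, summed to 3.45 to 4.56 CPM in control and 4.13 to 4.80 CPM in JAG1-overexpressing libraries, with Sox10, Mog and Cspg4 at 0 in every library. Microglial markers summed to 3.24 to 3.97 CPM in control and 1.55 to 2.34 CPM in JAG1-overexpressing libraries, where Tmem119 fell and Cx3cr1 rose. Neuronal markers summed to 2.42 to 3.41 CPM and 0.275 to 0.449 CPM, nearly all from Stmn2, and Snap25, Syt1 and Gad1 were at 0 in every library. The part of these marker differences in the values of the receptors and Enpp2 was not tested, and in bulk RNA fewer cells of a type and less RNA per cell cannot be told apart.

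Of the 9 genes, 6 had enough reads to be tested and 3 were at 0 in every library. In the fit across all genes, 2 were past an adjusted p of 0.05 in the higher direction and 3 in the lower direction in JAG1-overexpressing astrocytes, where 27.4% of the 11712 tested genes were higher and 27.7% lower, 55.1% in all. The control and JAG1-overexpressing libraries did not overlap for 5 of them, 2 with JAG1-overexpressing libraries above and 3 with them below. Among the tested genes this was so for 62.0%, with 31.1% above and 30.9% below. Because this contrast was in view when the genes were chosen, nothing is read from these counts.

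Enpp2 (autotaxin) lies on chromosome 15 (GRCm38.p6, 54838901 to 54952789). It had 243, 227 and 185 reads in the control libraries and 13, 2 and 11 reads in the JAG1-overexpressing libraries. In CPM these were 11.999, 12.187 and 9.677 in control and 0.648, 0.138 and 0.668 in JAG1-overexpressing astrocytes. Every JAG1-overexpressing library was far below every control library, and in replicate 2 the reads were under the limit of detection. The mean level went from 11.3 ± 1.40 CPM to 0.485 ± 0.301 CPM (SD, n = 3 each), a log2 fold change of −4.46 (SE 0.27), or 22.0-fold lower. This was the largest change among the 9 genes, and 136 of the 11712 tested genes had a lower fold change. Omitting single libraries gave values from −4.73 to −4.09, the smaller change without JAG1-overexpressing replicate 2. An annotated gene on the opposite strand, Gm26684, shares exonic bases with Enpp2 and had no row of its own in the tables, and without a stated strand setting reads from both cannot be told apart.

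Lpar1, on chromosome 4 (58435252 to 58554027), encodes the LPA receptor that is most widely expressed in brain and belongs to the EDG family, named after endothelial differentiation genes. It had 4415, 3839 and 4070 reads in the control libraries and 2722, 1929 and 2069 reads in the JAG1-overexpressing libraries. After normalization it was at 218, 206 and 213 CPM in control and at 136, 133 and 126 CPM in JAG1-overexpressing astrocytes, so that the groups did not overlap. The log2 fold change was −0.69 (SE 0.05), or 1.62-fold lower. Lpar1 was still the most abundant of the 9 transcripts in both groups. The other EDG-family LPA receptors, Lpar2 on chromosome 8 (69822565 to 69831102) and Lpar3 on chromosome 3 (146220961 to 146286214), were listed at 0 reads in all 6 libraries. At this depth a count of 0 allows a level of up to 0.148 to 0.206 CPM, depending on the library. This holds only if reads from these genes could be assigned to their rows, which was not tested.

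Lpar4 and Lpar6 encode LPA receptors of a different lineage, which are closer in sequence to the P2Y nucleotide receptors than to the EDG receptors. Both can couple to G12/13 proteins. Lpar4, on chromosome X (106920625 to 106933899), had 40, 22 and 37 reads in the control libraries and 238, 138 and 191 reads in the JAG1-overexpressing libraries. These were 1.98, 1.18 and 1.94 CPM in control and 11.9, 9.50 and 11.6 CPM in JAG1-overexpressing astrocytes. The lowest JAG1-overexpressing library was well above the highest control library. The log2 fold change was 2.69 (SE 0.19), or 6.45-fold higher, and 189 tested genes had a higher one. Leaving out a library at a time kept it between 2.49 and 2.82.

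Lpar6, on chromosome 14 (73237891 to 73240358), had 505, 451 and 476 reads in the control and 757, 589 and 634 reads in the JAG1-overexpressing libraries. The levels were 24.9, 24.2 and 24.9 CPM in control and 37.7, 40.5 and 38.5 CPM in JAG1-overexpressing astrocytes, without overlap. The log2 fold change was 0.66 (SE 0.07), or 1.58-fold higher. Lpar6 lies within the span of Rb1 on the opposite strand and shares exonic bases with it in the GENCODE M21 annotation, and the strand setting of the counting is not given in the sources used here. Rb1, the retinoblastoma gene, had 17.3 ± 2.03 CPM in control and 15.7 ± 0.548 CPM in JAG1-overexpressing astrocytes (SD, n = 3 each), a log2 fold change of −0.14 (SE 0.10).

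**Figure D1:**
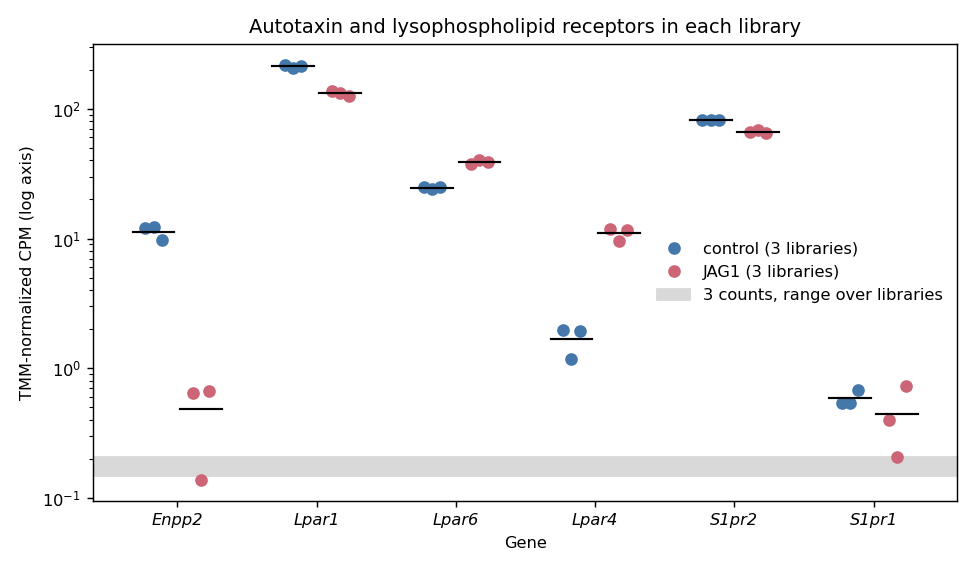
Level of each expressed gene in every library, in TMM-normalized CPM on a log axis, with control libraries in blue, JAG1-overexpressing libraries in red, the mean as a black line and the CPM equal to 3 reads as a grey band. Enpp2 is lower in all 3 JAG1-overexpressing libraries, from a control mean of 11.3 to 0.485 CPM, Lpar4 and Lpar6 are higher, Lpar1 and S1pr2 are lower by less, and the S1pr1 points of both groups overlap.

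The 250 bases before the annotated start site are shown for the genes that were higher, Lpar4 and Lpar6, and for S1pr2, which was lower, because the study concerns a complex of the JAG1 intracellular domain and SMAD3 that acts at promoters. The sequences are those of RefSeq on GRCm38.p6, read 5′ to 3′ on the strand of the gene. Capitals mark the core of the SMAD3 binding element, GTCTG or its reverse complement CAGAC, and the core bound by the Notch factor RBPJ, TGGGAA or its reverse complement TTCCCA.
Lpar4, chrX:106920375-106920624, plus strand: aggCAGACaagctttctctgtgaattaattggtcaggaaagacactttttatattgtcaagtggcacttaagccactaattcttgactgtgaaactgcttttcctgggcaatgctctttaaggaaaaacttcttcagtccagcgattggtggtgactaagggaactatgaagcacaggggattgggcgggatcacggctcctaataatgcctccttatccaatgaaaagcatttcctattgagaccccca
Lpar6, chr14:73237641-73237890, plus strand: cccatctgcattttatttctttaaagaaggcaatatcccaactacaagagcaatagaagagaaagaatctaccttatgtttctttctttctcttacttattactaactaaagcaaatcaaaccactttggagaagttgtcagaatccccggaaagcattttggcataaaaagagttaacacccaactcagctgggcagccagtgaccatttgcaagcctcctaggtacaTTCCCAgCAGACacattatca
S1pr2, chr9:20976794-20977043, minus strand: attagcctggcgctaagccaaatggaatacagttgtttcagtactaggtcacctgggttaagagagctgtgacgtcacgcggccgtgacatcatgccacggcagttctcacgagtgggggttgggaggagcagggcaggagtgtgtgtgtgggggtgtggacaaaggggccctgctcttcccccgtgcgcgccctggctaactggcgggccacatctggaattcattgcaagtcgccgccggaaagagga

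None of these stretches overlapped an exon in GENCODE M21. In windows from 250 bases before to 50 bases after the start site, both strands searched, the Lpar4 window held 1 SMAD3 core, at position −247 from the start site, and no RBPJ core. The Lpar6 window held 1 SMAD3 core at −14 and 1 RBPJ core at −21, and these did not overlap each other. The S1pr2 window held neither. Lpar1, which was lower like S1pr2 but is not shown, has 3 annotated windows. Of these, 2 held neither motif and the third, the farthest downstream, held 3 SMAD3 cores. A link between the motifs and the direction of change was not tested. The windows of Lpar2 and Lpar3 held 1 RBPJ core each, and that of S1pr3 held 1 core of each kind. Of all 32851 promoter windows of this length, 49.6% held a SMAD3 core and 25.6% an RBPJ core. The study draws a longer SMAD3 element, TWGTCTGV, at the human TWIST1 promoter, farther upstream than these windows reach. It also draws this element at the human SNAI2 promoter, at a distance from the start site that these windows cover. Only the core was searched here. Windows for Enpp2 and S1pr1 were not analysed here.

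With Lpar1 lower and the non-EDG receptors higher, the make-up of the LPA receptor reads differed between the groups. Lpar1 gave 89.0% ± 0.124 (SD, n = 3) of the LPA receptor reads in control and 72.5% ± 0.883 (SD, n = 3) in JAG1-overexpressing astrocytes. The share of Lpar6 was 10.3% ± 0.144 in control and 21.5% ± 0.977 in JAG1-overexpressing astrocytes, and that of Lpar4 was 0.708% ± 0.171 and 6.07% ± 0.760. The summed level of the LPA receptors was 232 to 245 CPM in the control libraries and 176 to 185 CPM in the JAG1-overexpressing libraries. The lower total thus went together with a larger share of non-EDG receptors in all 3 JAG1-overexpressing libraries. The shares assume that every transcript gives reads at its 3' end equally well.

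**Figure D2:**
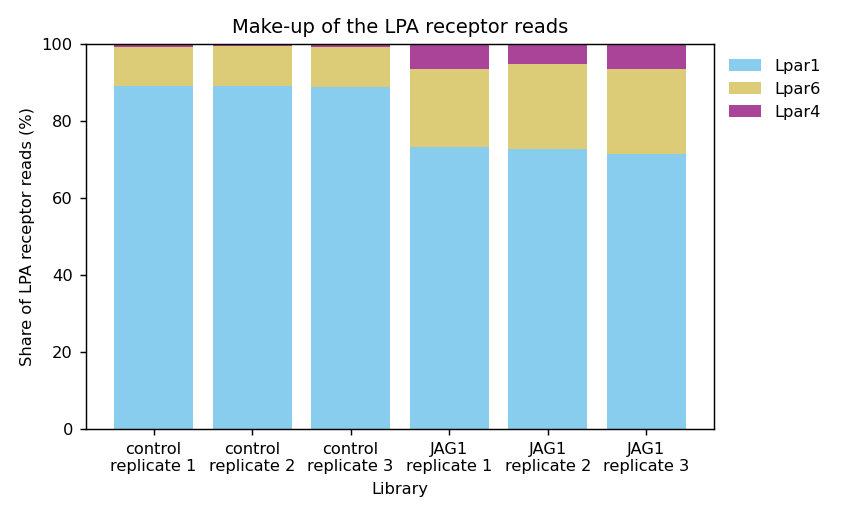
Share of the LPA receptor reads of each library, in percent, that came from Lpar1, Lpar6 and Lpar4, with 1 stacked bar per library. The bars of the 3 control libraries and those of the 3 JAG1-overexpressing libraries differ most in Lpar1, at 89.0% and 72.5% on average.

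Among the S1P receptors, S1pr2 on chromosome 9 (20965952 to 20976793), which couples to G12/13 and is known to restrain Rac, gave nearly all the reads. It had 1670, 1527 and 1554 reads in the control libraries and 1322, 999 and 1077 reads in the JAG1-overexpressing libraries. These were 82.5, 82.0 and 81.3 CPM in control and 65.9, 68.7 and 65.4 CPM in JAG1-overexpressing astrocytes. The groups did not overlap, although the difference was small, with a log2 fold change of −0.30 (SE 0.06), or 1.23-fold lower. S1pr1, a Gi-coupled receptor on chromosome 3 (115710433 to 115715055), was close to the limit of detection. It had 11, 10 and 13 reads in the control libraries and 8, 3 and 12 reads in the JAG1-overexpressing libraries. The highest and the lowest of these levels, 0.729 and 0.206 CPM, were both in JAG1-overexpressing libraries, and the groups overlapped. Its log2 fold change of −0.38 (SE 0.46) ran from −0.88 without JAG1-overexpressing replicate 3 to −0.08 without JAG1-overexpressing replicate 2. S1pr3, on chromosome 13 (51408618 to 51422797), was listed at 0 reads in all 6 libraries, and it too has an antisense gene, Gm32834, with which it shares exonic bases. S1pr2 made up 99.3% ± 0.102 of the S1P receptor reads in control and 99.3% ± 0.405 in JAG1-overexpressing astrocytes (SD, n = 3 each).

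Low counts, near 0 for Gna12, were also found for genes that most cells use. In all, 6508 rows were at 0 in every library. Gna12, which encodes the G protein alpha 12 subunit through which several of these receptors signal, had 3 to 6 reads per library, and Gapdh had 541 to 774 against 99112 to 228406 for Actb. Gapdh and Actb were looked at after the zeros were seen, and Gna12 was named here after its value was seen. A row at 0 therefore shows only that no read was assigned to it.

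Ordered by level in control astrocytes, the expressed genes were Lpar1, S1pr2, Lpar6, Enpp2, Lpar4 and S1pr1, and the ranges of adjacent genes in this order did not overlap. In JAG1-overexpressing astrocytes the order was Lpar1, S1pr2, Lpar6, Lpar4, Enpp2 and S1pr1. Enpp2 and Lpar4 had changed places, and the ranges of Enpp2 and S1pr1, both under 1 CPM, overlapped.

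Each gene was set beside its chromosome, since the genes of chromosome 15, where Enpp2 lies, were lower as a whole in JAG1-overexpressing astrocytes, with a median log2 fold change of −0.53 over 459 tested genes. The change of Enpp2 differed from this median by −3.93. Of its 20 nearest tested genes, 10 on each side, 11 were lower and 1 was higher, with a median of −0.44 and a lowest value of −1.97 (Sybu), so that Enpp2 was below all of them. Around Lpar4 the picture was different. The median of its 20 nearest tested genes was 0.08 and that of chromosome X −0.03, but 3 of the 20 rose by at least 3 on the log2 scale, as did 11 of the 367 tested genes of chromosome X and 159 of all 11712. Taf9b, which encodes a TFIID-related factor and is the closest tested gene before Lpar4 with its start 713.8 kb away, went from 0.645 ± 0.325 CPM to 30.3 ± 3.07 CPM (SD, n = 3 each; log2 fold change 5.56). Magee1 went from 1.95 ± 0.0340 CPM to 16.9 ± 1.04 CPM (log2 fold change 3.11), and Nap1l3, 15474 kb away, had 1, 2 and 0 reads in the control and 24, 8 and 13 reads in the JAG1-overexpressing libraries. These 3 neighbours are named because of their values. Lpar6, at 0.66, was exceeded by 1 of its 20 neighbours, whose median was −0.14. Lpar1 and S1pr2 lay within the range of their neighbours, whose medians were −0.07 and −0.01.

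**Figure D3:**
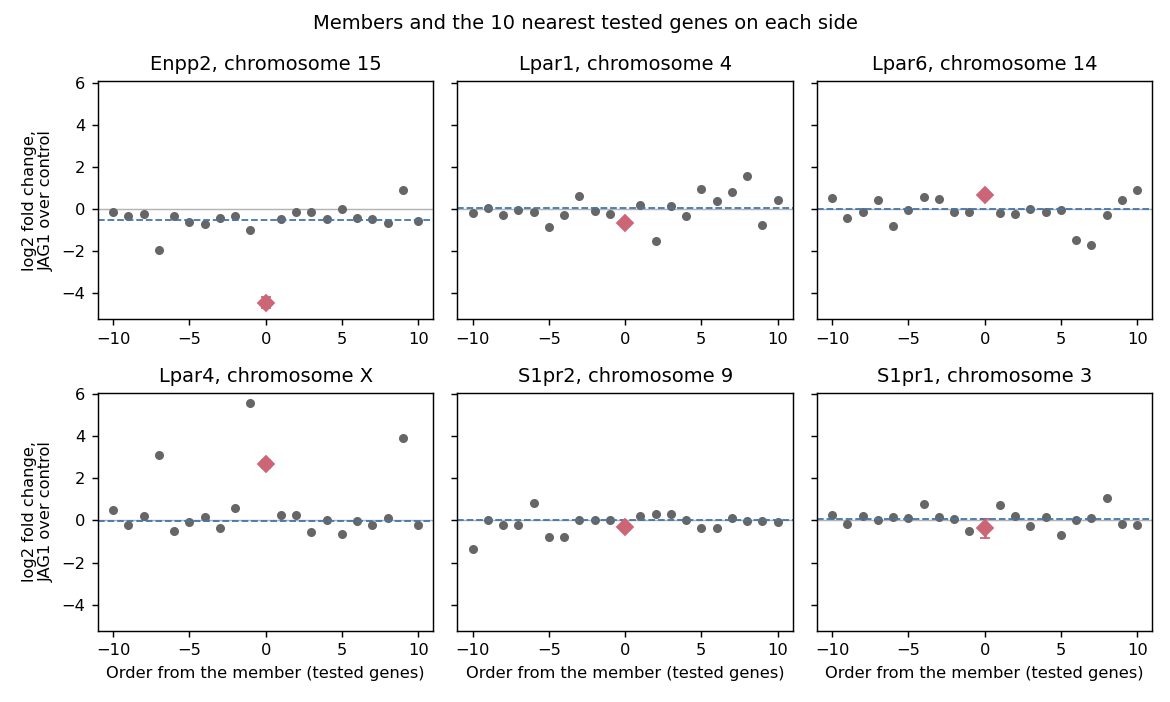
Log2 fold change of the 6 expressed genes (red diamonds, bars show the SE) and of the 10 nearest tested genes on each side (grey points) against their order along the chromosome, with the chromosome's median as a dashed blue line. Enpp2 at −4.46 lies below all its neighbours and the chromosome 15 median of −0.53, and Lpar4 at 2.69 has 3 neighbours that are higher than it.

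The rest of the pathway was followed with lists of genes written from general knowledge, in which each gene was tested in the fit across all genes. The first list held 14 genes of LPA metabolism other than autotaxin. Of 12 tested, 6 were higher, 4 were lower and 2 were not past the threshold, with a median log2 fold change of 0.20 against 0.0039 for all tested genes. Plpp3, a membrane phosphatase that degrades extracellular LPA and S1P, fell from 10.9 ± 1.22 CPM to 4.09 ± 0.485 CPM (SD, n = 3 each), a log2 fold change of −1.42 (SE 0.14, adjusted p = 7.42e-06). Its relative Plpp1 fell by 0.41 on the log2 scale and Plpp2, the most abundant of the group, rose by 0.17. Gdpd1, a lysophospholipase D that can make LPA inside the cell, fell with a log2 fold change of −0.77 (SE 0.09, adjusted p = 1.93e-05).

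Enzymes that turn LPA into phosphatidic acid moved in both directions. Agpat3 rose by 0.66 (SE 0.06, adjusted p = 3.14e-06) and Agpat5 by 0.65 on the log2 scale, whereas Agpat4 went from 64.0 ± 8.55 CPM to 35.9 ± 1.37 CPM (log2 fold change −0.84, adjusted p = 1.83e-05). Agk, a mitochondrial kinase that makes LPA from monoacylglycerol, rose by 0.70 (adjusted p = 0.0160), and Acp6, an LPA phosphatase, rose by 1.88 from a control level near the limit of detection (adjusted p = 0.0180). Both calls were lost when single libraries were left out. Without JAG1-overexpressing replicate 2 the adjusted p was 0.0610 for Agk and 0.0848 for Acp6, and without control replicate 2 it was 0.0631 for Acp6. The log2 fold change of Acp6 ran from 1.43 without control replicate 2 to 2.84 without control replicate 3.

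Of 21 genes of S1P metabolism and transport, 17 were tested, 8 were higher, 4 were lower and 5 were not past the threshold (median log2 fold change 0.17). This median depended on single libraries, at 0.27 without control replicate 2, 0.289 without JAG1-overexpressing replicate 1 and 0.066 without either JAG1-overexpressing replicate 2 or 3. Both kinases that make S1P were higher, Sphk1 with a log2 fold change of 0.62 (SE 0.11, adjusted p = 0.000521) and Sphk2 with 0.49 (SE 0.09, adjusted p = 0.000771). Spns2, the transporter that exports S1P, rose 2.11-fold, from 25.3 ± 2.52 CPM to 53.2 ± 4.99 CPM (SD, n = 3 each; adjusted p = 2.41e-06). It had 485, 442 and 539 reads in control and 1178, 712 and 854 reads in JAG1-overexpressing libraries. Cers4, a ceramide synthase, rose most of the list, from 17.4 ± 2.73 CPM to 44.8 ± 3.48 CPM (log2 fold change 1.36, adjusted p = 1.38e-06), and the ceramidase gene Asah1 rose by 0.75 on the log2 scale (adjusted p = 0.000125).

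Genes that remove S1P did not move as one. Sgpl1, the lyase that degrades S1P irreversibly, was lower with a log2 fold change of −0.27 (adjusted p = 0.00183), and the phosphatase gene Sgpp2 with −0.55 (adjusted p = 0.00736), whereas the far more abundant Sgpp1 rose by 0.51 (adjusted p = 0.000138). The ceramidase gene Acer3 was at −0.31 (adjusted p = 0.0131). Its adjusted p was 0.0527 without control replicate 2, 0.0693 without JAG1-overexpressing replicate 1 and 0.0510 without JAG1-overexpressing replicate 2. Apom, the carrier of S1P in blood, had at most 4 reads in any library. Of the 8 other lysophospholipid receptor genes, among them Lpar5, S1pr4 and S1pr5, none had enough reads to be tested, and 5 were at 0 in every library.

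Of 20 genes for G proteins and their effectors, 17 were tested, 8 were higher, 2 were lower and 7 were not past the threshold (median log2 fold change 0.15). Plcb1, a phospholipase C activated by Gq, fell from 13.4 ± 0.572 CPM to 1.33 ± 0.222 CPM (SD, n = 3 each), or 9.92-fold (adjusted p = 1.31e-08). Tiam1, an exchange factor for Rac, fell 4.33-fold, from 29.2 ± 2.08 CPM to 6.74 ± 0.581 CPM (adjusted p = 2.03e-08). In the opposite direction Plcb4 was at 0 reads in every control library, and JAG1-overexpressing replicates had 16, 20 and 20 reads. This was at least 7.27-fold higher when each control library is set at 3 reads (adjusted p = 0.000113). Plcb3 rose by 0.49 (adjusted p = 0.00183) and Gnaq, which encodes the G protein alpha q subunit, by 0.52 on the log2 scale (adjusted p = 5.13e-05). Both lie on chromosome 19, whose 422 tested genes had a median log2 fold change of 0.61. Rock1, Rock2 and Rac1 rose by 0.31, 0.41 and 0.31 on the log2 scale, and Gna13 had a log2 fold change of 0.07 that was not past the threshold (adjusted p = 0.575).

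LPA and S1P are known to activate the coactivators YAP and TAZ through G12/13, and 22 of their target genes were examined. Of 21 tested, 4 were higher, 10 were lower and 7 were not past the threshold, with a median log2 fold change of −0.21. This median was −0.352 without control replicate 1 and −0.145 without control replicate 3. Ccn2, which encodes connective tissue growth factor, had 26491, 37296 and 43235 reads in control and 3995, 2463 and 3024 in JAG1-overexpressing libraries, 10.1-fold lower (adjusted p = 2.91e-08). Igfbp3, an IGF binding protein, fell 11.7-fold, from 33.7 ± 9.33 CPM to 2.88 ± 0.289 CPM (adjusted p = 1.53e-07), and the transcription factor gene Foxf2 fell 2.44-fold (adjusted p = 3.77e-05). Myof and Ankrd1 rose 3.20-fold and 2.16-fold (adjusted p = 1.02e-09 and 1.80e-08), both on chromosome 19, and Lats2, a kinase that inhibits YAP, rose by 0.51 on the log2 scale (adjusted p = 0.000218). Ccn1, which like Ccn2 is used as a reporter of YAP activity, had 5961, 12722 and 16115 reads in the control libraries and 10164 to 15494 in the JAG1-overexpressing libraries, so that the groups overlapped (log2 fold change 0.34, adjusted p = 0.313). The low value was in control replicate 1. Ccn2 and Igfbp3 also had their fewest control reads in that library, whereas Ankrd1 did not. The list therefore held changes in both directions, with more genes lower than higher and the largest falls larger than the largest rises.

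**Figure D4:**
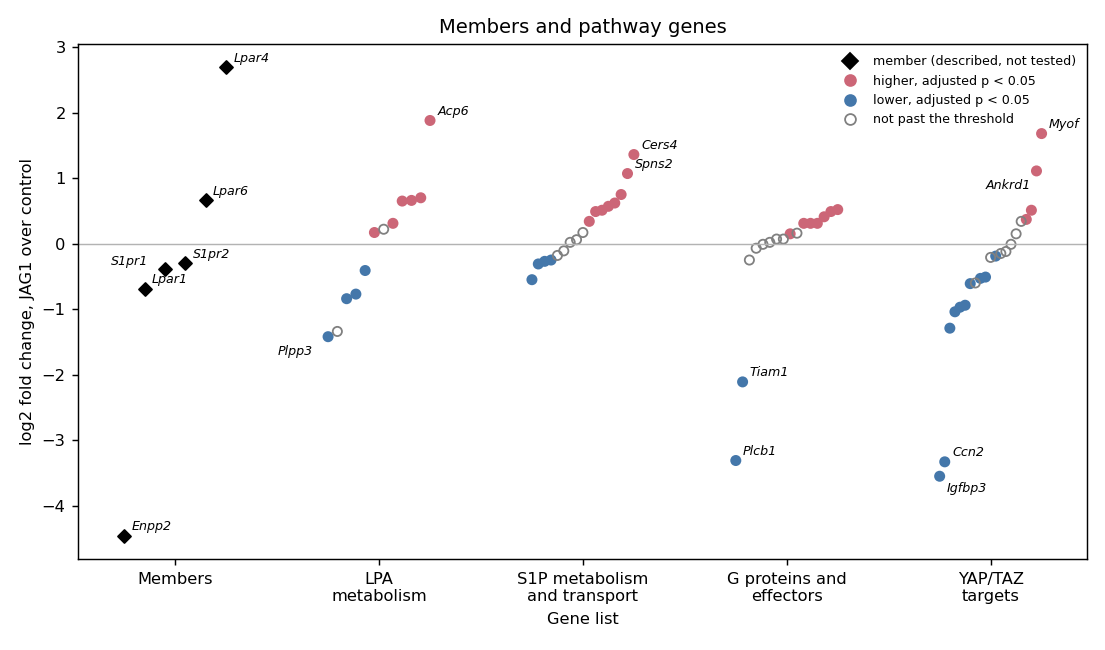
Log2 fold change of the tested genes in each list, with the described genes as black diamonds, genes past an adjusted p of 0.05 in red (higher) or blue (lower) and the others as open circles. Plcb4, which was at 0 in every control library, is left out. Plcb1 and Tiam1 stand below the other genes for G proteins and effectors, and the YAP and TAZ targets run from −3.55 to 1.68.

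The genes whose 6 log2 CPM values were closest to those of Lpar4 and Enpp2 were looked up over all tested genes. For Lpar4, they were Tmem223, Cep112 and Gpr39, at Euclidean distances of 0.73, 0.94 and 1.19. Gpr39, itself a G protein-coupled receptor, went from 1.34 ± 0.357 CPM to 13.9 ± 1.92 CPM (SD, n = 3 each). For Enpp2, they were Lmo1, Entpd2 and Ndp, at distances of 0.99, 1.34 and 1.36. Entpd2, an ectonucleotidase, went from 13.1 ± 1.16 CPM to 0.479 ± 0.104 CPM (SD, n = 3 each). The distance covers level and pattern over 6 libraries in 2 groups and mostly follows the group difference.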

How the data were processed

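The authors deposited, for each of 6 QuantSeq 3' mRNA libraries (3 control, 3 JAG1-overexpressing), a table with the raw read counts per gene symbol and a normalized read count in log2, whose method is not given in the sources used here. The submitters' processing notes name Bowtie2, bedtools, edgeR and the build GRCm38/mm10 without roles or versions. The raw counts were used for all comparisons. The deposited log2 values were used only for 1 observation in the closing section. Groups came from the sample titles.

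Counts were analysed in R 4.3.3 with edgeR 4.0.16. Genes were kept by filterByExpr with a minimum count of 10 (11712 genes), libraries were scaled by TMM, and its quasi-likelihood test was run on the group term alone. Benjamini-Hochberg adjustment covered all tested genes, and adjusted p-values under 0.05 were called. SEs were derived from the F statistic. Exact permutation of 3 against 3 libraries cannot give a two-sided p under 0.1. Symbols were matched to RefSeq on GRCm38.p6 (22058 by symbol, 1072 by synonym), and list genes on several rows used the row with the most reads. The code was tested on simulated data.

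Alternatives were scaling by library size alone or upper quartile, DESeq2 1.42.0, voom of limma 3.58.1, no filter, a mean of at least 10 counts, a replicate block, and leaving out each library. The genes described, the pathway and marker lists and the tests were chosen with earlier results of these data known. The named pathway genes were, in each list, up to 3 rises and 3 falls with the largest changes past the threshold. Other genes were named for their role or after their values were seen. Protein sequences were not analysed here.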

Additional observations from a re-analysis of the deposited data

How the results depend on the processing

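The fold changes of the 6 tested members, of Jag1 and of the pathway genes named by the rule kept their direction under each setting in which they could be fitted, and Jag1 stayed past the threshold in each. The members' values remain a description. Counts of called genes, over all genes and in each list, stayed within 1.5 times. Under library size alone, upper quartile, DESeq2, limma-voom, both other filters and the replicate block, the log2 fold change of Enpp2 was between −4.64 and −4.44 and that of Lpar4 between 2.66 and 2.71. S1pr1 and Plcb4 had too few reads to be fitted under a mean of at least 10 counts. Without a filter, where sparse genes enter the lists, the median log2 fold change was −0.122 for LPA metabolism, −0.361 for YAP and TAZ targets and 0.087 for G proteins and their effectors. It was 0.112 for S1P metabolism and transport under limma-voom. The replicate numbers were not treated as pairs in the main fit. The deviations of same-numbered libraries correlated at 0.148, 0.061 and 0.119, and those of libraries with different numbers at −0.144 to 0.011. Every library correlated best with its own number, and whether libraries of the same number were prepared together was not tested. With the replicate block, 3380 genes were higher and 3331 lower instead of 3211 and 3247, the log2 fold change was −4.46 for Enpp2 and 2.69 for Lpar4, and no call of a gene named by the rule changed. Few reads limit S1pr1 in both groups, Enpp2 in the JAG1-overexpressing libraries and Acp6 in the control libraries.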

Other observations

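The deposited log2 normalized values treated rows without reads differently among libraries. In JAG1-overexpressing replicates 2 and 3, 3776 of 9321 and 3891 of 9436 rows with a raw count of 0 had a normalized value above 0, with medians of 0.02 and 0.01 and highest values of 0.625 and 0.333. In the control libraries and in JAG1-overexpressing replicate 1, no row with a raw count of 0 had a normalized value other than 0. Lpar2, Lpar3 and S1pr3 were at 0 in both columns of every library.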
